A study of Mus musculus with 2 samples.

Results

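Muscle buffers its ATP with creatine phosphate, and accessible chromatin was followed here at 9 genes of that system in mouse calf muscle. They are the creatine kinases Ckm, Ckb, Ckmt1 and Ckmt2, the adenylate genes Ak1 and Ampd1, the oxygen store Mb, and the creatine supply genes Slc6a8 and Gatm. They were picked by name, and their chromatin was taken as every peak of the longer peak list of each library, with the footprints inside it, within 50 kb of any annotated start of the 9 genes. That gave 112 of 94295 peaks in replicate 1 and 173 of 123291 in replicate 2, a mean of 142.5, and all 9 genes had peaks in both libraries.

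The assay was DNase-seq, which sequences the cuts that the nuclease makes where DNA is free of nucleosomes. The tissue was gastrocnemius from B6CASTF1/J mice, a cross of C57BL/6J with CAST/EiJ, male and 4 days old. Each label names 3 males, so a library may pool animals, and replicates 1 and 2 are different tissue samples with the same donor entry. No treatment and no other genotype was part of the design, so there was nothing to contrast, no p-values are given, and ± is the SD over the 2 libraries. This was whole muscle, so an opening in fewer cells and a weaker opening in each cell cannot be told apart.

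Creatine kinases move phosphate between ATP and creatine. The cytosolic enzymes Ckm and Ckb do so at sites of ATP use. Ckmt1 and Ckmt2 do so in the space between the mitochondrial membranes, near the site where ATP is made. Adenylate kinase turns a pair of ADP into ATP and AMP, AMP deaminase removes the AMP, and myoglobin holds oxygen for respiring fibres. Most creatine of muscle is made elsewhere, Gatm catalysing its first step mainly in kidney and pancreas, and enters the fibre through the transporter Slc6a8. Ckm, Ckmt2, Ak1, Ampd1 and Mb are textbook genes of striated muscle, whereas Ckb and Ckmt1 are better known from brain and other tissues.

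Most peaks near the 9 genes were seen in both libraries when counted from replicate 1. In replicate 1, 88.4% of the 112 peaks shared at least 1 bp with a peak of the other library, beside 79.6% of all its peaks. In replicate 2, 57.8% of the 173 peaks did so, beside 60.8% of all. Each shared peak of replicate 1 was paired with its largest overlap in replicate 2, which made 99 pairs of shared peaks. Within a library, 2 of the 112 peaks and 12 of the 173 overlapped another, and all were counted. The 2 of replicate 1, near Ckm, were paired with the same peak of replicate 2. The strength of a peak is given by the cut density in the authors' lists, and its rank is the percentile of that density, from 0 to 100, in its own library. The median density of the peaks was 1.40 in replicate 1 and 0.603 in replicate 2, where all peaks had medians of 0.871 and 0.513. In the 99 pairs the density of replicate 1 was a median 1.51 times that of replicate 2, and over all 75098 pairs of the series it was 1.41 times. The 13 unshared peaks of replicate 1 had a median rank of 42.0 against 72.1 for its shared ones, and the 73 unshared peaks of replicate 2 had 16.3 against 76.7.

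Few of the shared peaks, strong or not, belonged to the promoters of the 9 genes themselves. Of the 99 shared peaks, 9 touched a promoter of the 9 genes, 3 missed the promoters but lay within 1 kb of a start of the 9 genes, coding or not, 35 lay within 1 kb of a start of another gene, and 52 were distal, centred over 1 kb away from the starts of all genes. The 14 shared peaks with a mean rank over 90 comprised 11 at starts of neighbouring genes, 3 distal ones and 0 promoters of the 9 genes. With only 9 promoter peaks among the 99, this is a description. In single libraries, 11.6% of the peaks near the 9 genes in replicate 1 and 9.25% in replicate 2 ranked over 90. That is near the share which this limit sets for all peaks. The strongest was at Ercc2, a DNA repair helicase gene beside Ckm, with ranks of 99.2 and 99.6. The shared distal peaks lay in introns in 24 cases, between genes in 17, in 3′ UTRs in 6, in coding exons in 3 and in noncoding exons in 2.

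The number of peaks differed widely from gene to gene. Ak1 had the most per 100 kb of its window in replicate 1, with 24.1 and with 29.7 in replicate 2. Ckm followed with 16.9 and 33.9, and Ckb with 14.9 and 28.8. Ckmt1 had the fewest in both libraries, 4.75 in each. Over 21866 protein-coding genes the median was 5.70 in replicate 1, with quartiles of 2.81 and 9.85, and 7.0 in replicate 2, with quartiles of 3.35 and 12.2. Ckm, Ckb and Ak1 were above the upper quartile in both libraries. Mb, with 10.9 in each, was above it in replicate 1 only, and Ckmt2 with 17.0 and Slc6a8 with 19.9 in replicate 2 only. Ckmt1 lay below the median in both.

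**Figure D1:**
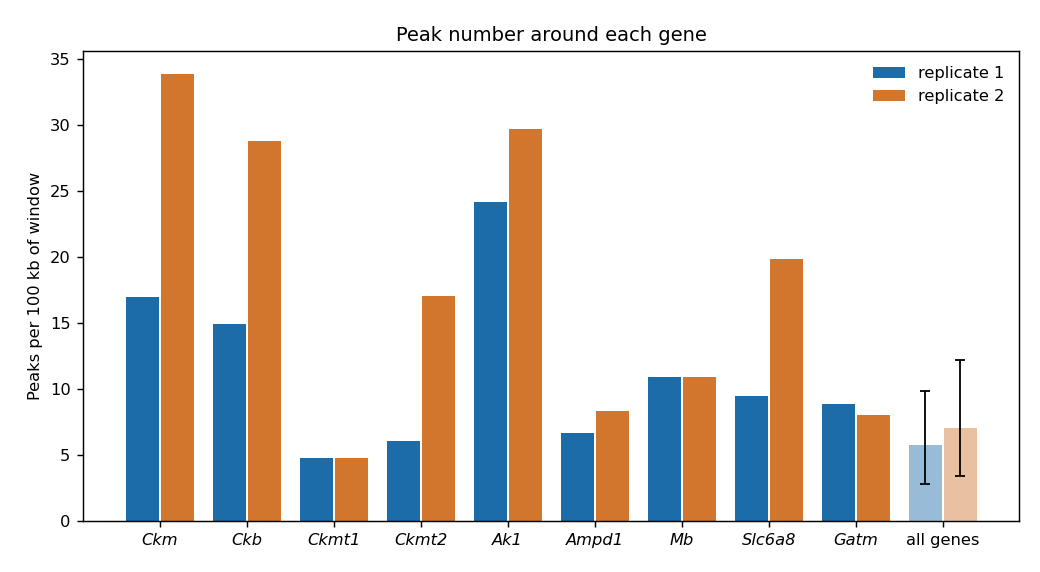
Bars give the peaks per 100 kb of the window around each gene in replicate 1 (blue) and replicate 2 (orange); the paler pair at the right is the median of 21866 protein-coding genes with its quartiles as error bars. Ak1, Ckm and Ckb stand highest in both libraries and Ckmt1 lowest in both, at 4.75.

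**Figure D2:**
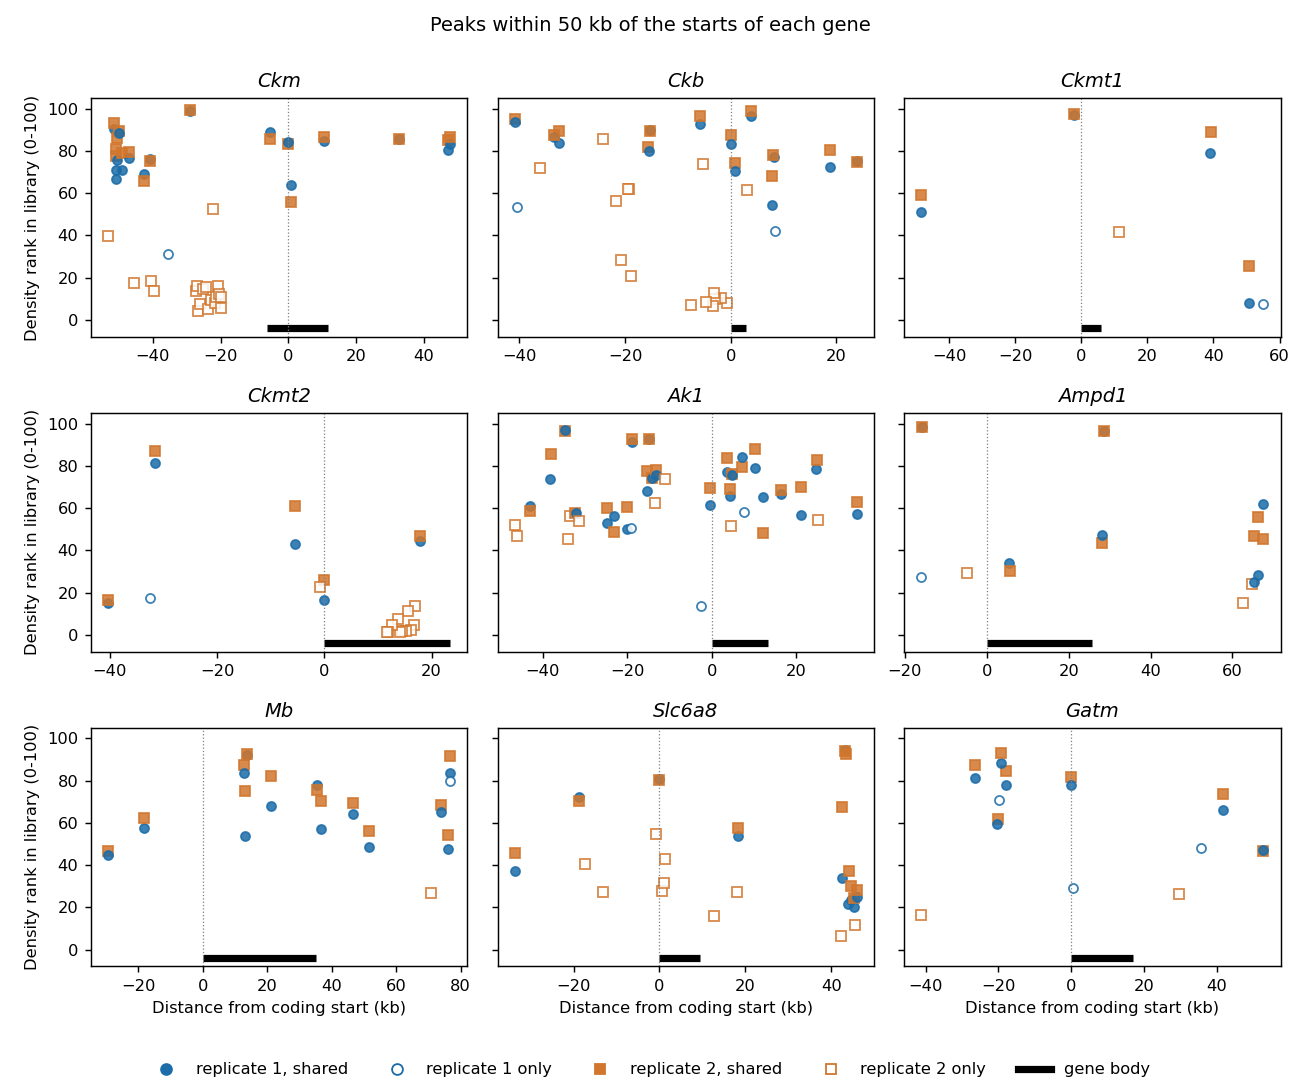
Each panel plots the peaks of 1 gene by distance from its most upstream coding start in kb (negative is upstream) and by density rank in its library; circles are replicate 1, squares replicate 2, filled symbols peaks shared by both, and the black bar the gene body. Unshared peaks of replicate 2 form low-ranked clusters near Ckm, Ckb and Ckmt2, though some near Ckb rank higher, while nearly all peaks near Mb are shared.

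Promoters were open at 6 of the 9 genes. A promoter here reaches 500 bp to each side of a coding start, and a peak of replicate 1 touched it at 6 genes, of replicate 2 at 6 and of both at 6: Ckm, Ckb, Ckmt2, Ak1, Slc6a8 and Gatm. Of all 21866 protein-coding genes, 65.2% had such a peak in replicate 1, 67.0% in replicate 2 and 64.0% in both, so the share of the 9 genes was near the background. Ckmt1, Ampd1 and Mb had none in either library. The deposited lists of bases with a false discovery rate (FDR) below 0.05 gave 0 such bases in the promoters of these 3 genes in both libraries, whereas 66.1% of all protein-coding genes had at least 1 in replicate 1 and 68.1% in replicate 2. A base missing from those lists was not called at this depth, which does not show that the promoter was closed.

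Where a promoter peak was present it ranked below the median of promoter peaks. The strongest promoter peak of the 6 genes had a median rank of 82.0 in replicate 1 and 82.6 in replicate 2, below the medians of 90.9 and 92.6 over all genes with a promoter peak. Ckb ranked highest with 85.4 ± 2.95, followed by Ckm with 83.8 ± 0.822, Slc6a8 with 80.4 ± 0.268 and Gatm with 80.1 ± 2.67. Ckb and Ckm did not differ beyond the spread between the libraries, nor did Slc6a8 and Gatm, and the ranks of Slc6a8 lay below those of Ckb and Ckm in both libraries. Ak1 had 83.8 ± 0.353, but this joins different peaks of the libraries. As single peaks, the one that led in replicate 1 had ranks of 84.1 and 79.5 (81.8 ± 3.23) and the one that led in replicate 2 had 77.2 and 83.6 (80.4 ± 4.51), so neither was above Slc6a8 in both libraries, and at the most upstream start alone Ak1 had 65.4. Ckmt2 was far below the other 5 with 21.4 ± 6.68.

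**Figure D3:**
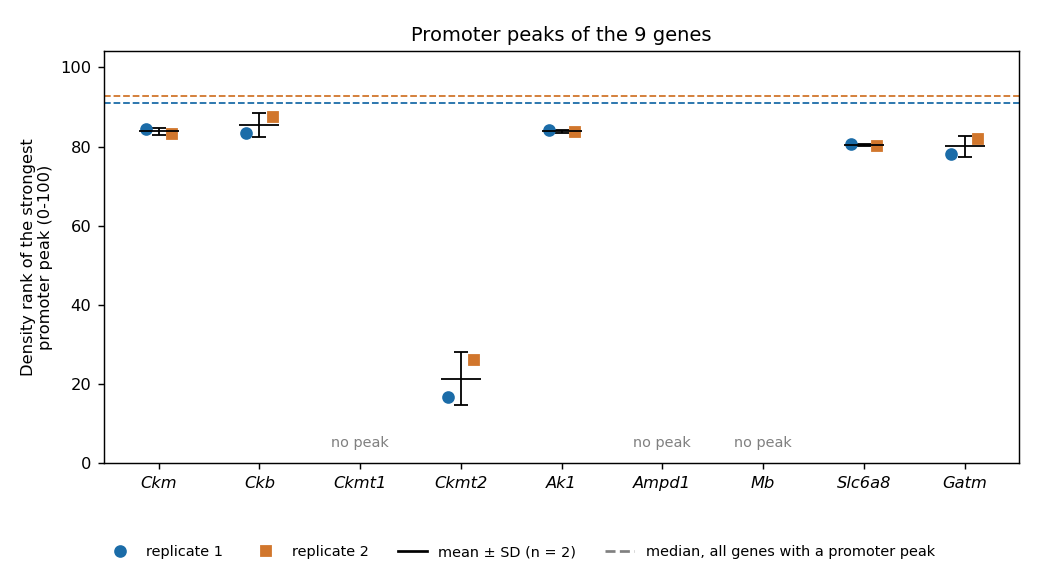
The rank of the strongest promoter peak (0 to 100 within its library) is shown for each gene in replicate 1 (circle) and replicate 2 (square) with the mean and SD (n = 2); dashed lines are the medians of all genes with a promoter peak, 90.9 in replicate 1 (blue) and 92.6 in replicate 2 (orange). Ckm, Ckb, Ak1, Slc6a8 and Gatm lie between 78.2 and 87.5, Ckmt2 at 16.7 and 26.1, the points of Ak1 are different peaks, and Ckmt1, Ampd1 and Mb have no promoter peak.

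The promoters fell into a CpG-poor and a CpG-rich kind. The genes were put into 10 classes of equal size by the ratio of observed to expected CpG. It was taken over 500 bp to each side of the most upstream coding start. A promoter peak counted at any coding start, so for genes with several starts, such as Ak1 and Mb, the class may describe another start. Ckm lay in class 2 from the bottom, where 13.0% of genes had such a peak in both. Ckmt2 and Ak1 lay in class 3, where 23.7% had one. Ckb, Slc6a8 and Gatm lay in classes 7, 8 and 6, where 95.7%, 96.6% and 90.6% had one. Of the genes without a promoter peak, Ckmt1 shared class 2 with Ckm, Ampd1 shared class 3 with Ckmt2 and Ak1, and Mb was in class 4, where 43.8% of genes had one.

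Ckm encodes the cytosolic creatine kinase of adult muscle. Its promoter peak lay at chr7:19410861-19411080 in replicate 1 with a density of 2.76 and at chr7:19410821-19411060 in replicate 2 with 1.43, at ranks of 84.4 and 83.2. The libraries placed it at nearly the same spot and rank. It covers the more upstream of 2 coding starts, at base 19411025 of the plus strand. The sequence from the peak's edge to the base before that start, chr7:19410821-19411024, is shown because 54 of its 204 bases lay in footprints, short stretches protected from cutting, of both libraries. Sequences are from the RefSeq record of GRCm38.p6 (mm10), which is C57BL/6J, so the CAST copy in these mice may differ; they run 5′ to 3′ on the gene's strand, and capitals mark bases in footprints of both libraries.
Ckm promoter: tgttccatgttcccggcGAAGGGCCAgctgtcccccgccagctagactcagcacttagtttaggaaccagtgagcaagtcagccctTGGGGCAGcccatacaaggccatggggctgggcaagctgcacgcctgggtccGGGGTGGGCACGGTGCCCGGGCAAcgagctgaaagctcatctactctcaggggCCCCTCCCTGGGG
The capitals form 4 blocks. The first touches a CAGCTG E-box, the type of site that myogenic factors such as MyoD bind, whose first base lies at -180, and in both libraries the footprint held only part of it. The next block to hold a match is the third, where the letters CACCC on the opposite strand, at -65, lay wholly inside a footprint of 25 bp in replicate 1 and 24 bp in replicate 2. The last footprint, from -13 to 6, had the same ends in both libraries and spans the start. A CAGCTG match occurred in 16.3% of 32851 RefSeq promoters of 300 bp and a CACCC match in 57.5%, so both are common letters.

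By mean rank, 87.2, the strongest peak of Ckm outside the starts of its neighbours was not the promoter but a peak farther upstream. It lay at chr7:19405501-19405660 in replicate 1, with densities of 3.75 and 1.62 and ranks of 88.9 and 85.5, and its centre was 804 bp downstream of the noncoding start of Ckm in an intron of that transcript. Its sequence, chr7:19405501-19405660, is printed because both libraries placed in it a footprint of 48 bp (replicate 1) or 47 bp (replicate 2), from -5493 or -5492 to -5446 of the coding start.
Ckm upstream: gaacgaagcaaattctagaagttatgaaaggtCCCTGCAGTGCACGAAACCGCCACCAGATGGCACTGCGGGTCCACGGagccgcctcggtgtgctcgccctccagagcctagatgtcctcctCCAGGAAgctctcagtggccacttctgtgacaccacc
Inside that long footprint lies a match to the core motif of CTCF, the zinc finger protein found at chromatin boundaries and loop anchors, from -5472, and neither CAGCTG nor CACCTG, the only E-box letters searched, occurs in this sequence. The CTCF motif was added to the search after the footprinted sequences had been seen.

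The stretch that holds the classical upstream muscle enhancer of Ckm was not called. From -1500 to -900 bp of the downstream coding start, 0 of 601 bases had an FDR below 0.05 in either library, and no peak lay in it. That window was chosen after values had been seen. In intron 1 a weaker shared peak lay 913 bp downstream of the start, with densities of 1.22 and 0.576 and ranks of 64.0 and 55.8. It held 3 footprints in replicate 1 and 0 in replicate 2.

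Ckm had 18 peaks in replicate 1 and 36 in replicate 2, 17 of them shared, and only 3 of the shared ones were distal. Distances of peaks run from the centre to the nearest start of the gene. The strongest distal one lay 32557 bp downstream in an intron of Mark4, a microtubule affinity kinase gene, at chr7:19443521-19443720, with densities of 3.02 and 1.66 and a mean rank of 85.8. The others lay 40696 and 34546 bp upstream in Ppp1r13l, at mean ranks of 78.3 and 75.6. The remaining shared peaks sat mostly at starts of Cd3eap, Ppp1r13l, Ercc2 and Mark4, and 1 lay at the start of the noncoding gene A930016O22Rik over the 3′ UTR of Ckm, with a mean rank of 85.6.

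Ckb encodes the cytosolic kinase of brain and many other tissues. Its promoter peak lay at chr12:111672241-111672460 in replicate 1, with a density of 2.59, and at chr12:111672221-111672460 in replicate 2, with 1.84, at ranks of 83.3 and 87.5. The part upstream of its start, chr12:111672339-111672460 on the minus strand, is printed because it holds 3 muscle or basal promoter motifs, none of them footprinted.
Ckb promoter: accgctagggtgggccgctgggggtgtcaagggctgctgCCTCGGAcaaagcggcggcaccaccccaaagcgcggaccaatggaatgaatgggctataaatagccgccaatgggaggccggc
A TATA box, TATAAA, begins at -28 and lies inside a match to the MEF2 motif that begins at -29, so the same letters count for both. A MCAT element, CATTCC on the opposite strand, begins at -41. Of all 32851 promoters 13.6% hold the TATA letters, 3.19% a MEF2 match and 14.7% the MCAT letters. The only bases footprinted in both libraries, 7 of 122, lay from -83 to -77 and hold none of the motifs searched.

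The most accessible site at Ckb lay behind the gene. A peak at chr12:111668481-111668640 had densities of 8.05 in replicate 1 and 6.44 in replicate 2 and ranks of 96.7 and 98.9, above the promoter peak in both libraries. It is 721 to 880 bp past the end of the gene and 3698 to 3857 bp downstream of its start. With a mean rank of 97.8 it was the strongest shared distal peak of the 9 genes, and its sequence is shown for its footprints, which cover 56 of its 160 bases in both libraries.
Ckb 3' flank: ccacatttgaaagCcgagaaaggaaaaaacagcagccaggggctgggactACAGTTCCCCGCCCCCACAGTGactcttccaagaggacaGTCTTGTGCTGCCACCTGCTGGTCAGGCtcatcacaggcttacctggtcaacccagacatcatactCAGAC
The longest block of capitals was footprinted in 28 bp of replicate 1 and 29 bp of replicate 2. It holds a CACCTG E-box, and those letters are part of a CTCF match on the opposite strand, so they count for both. The block of 22 bp before it had identical ends in both libraries and holds GGGCGG, the SP1 motif, on the opposite strand.

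Ckb had 15 peaks in replicate 1 and 29 in replicate 2, of which 13 were shared and 9 shared and distal, with mean ranks from 61.4 to 97.8. After the peak behind the gene, the strongest lay 15192 bp upstream, at chr12:111687441-111687620, with densities of 4.04 and 2.17 and a mean rank of 89.8. Next came a peak 33482 bp upstream with 3.16 and 1.83 and a mean rank of 86.9. Both lay between genes. Starts of Trmt61a and Bag5 gave the other strong peaks, at mean ranks of 94.6 and 94.5.

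**Figure D4:**
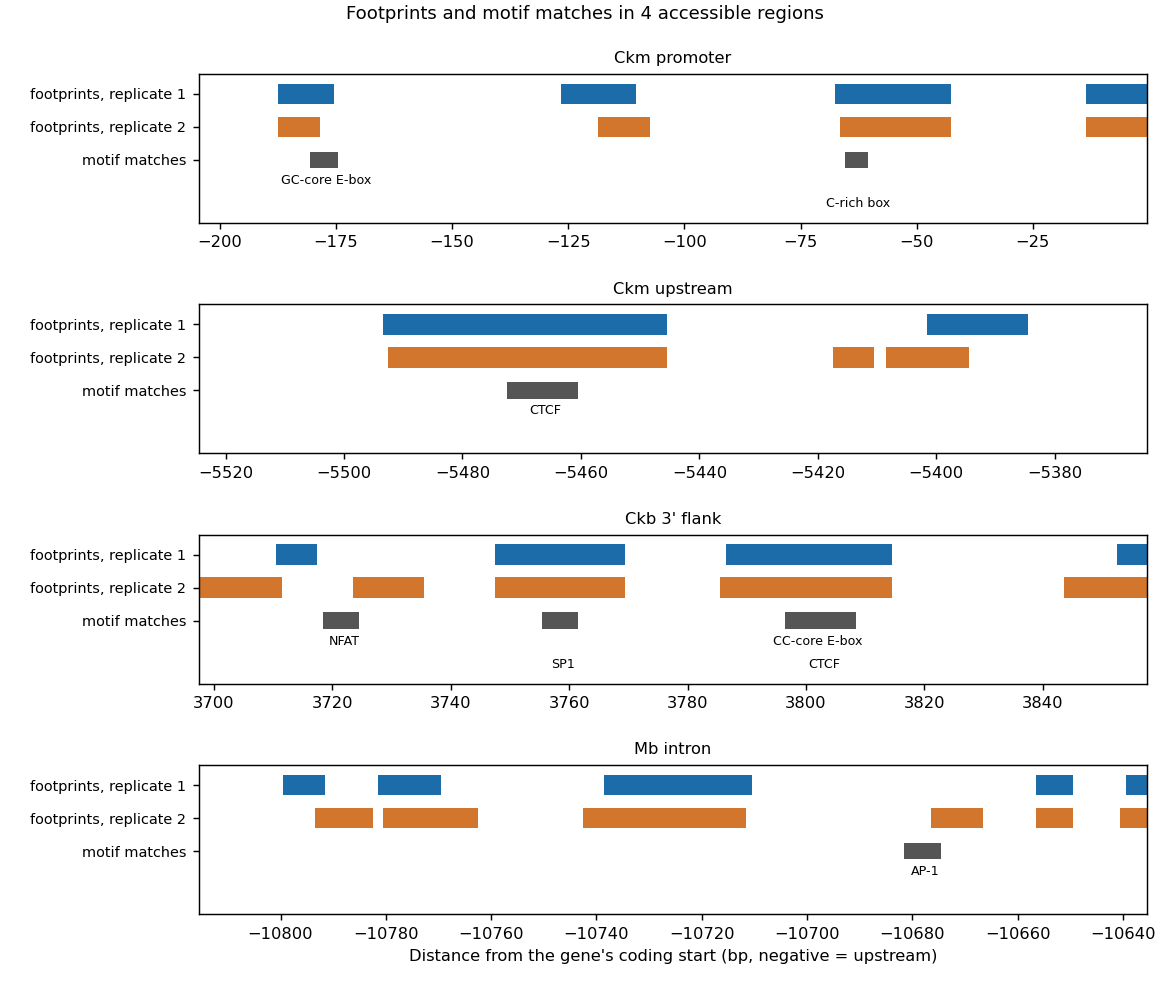
Footprints of replicate 1 (blue) and replicate 2 (orange) and motif matches (grey) are drawn by distance in bp from the nearest coding start in the promoter and the upstream peak of Ckm, the peak behind Ckb and the intronic peak of Mb; the GC-core E-box is the first and the CC-core E-box the second of the E-box types in the text, and the C-rich box is the CACCC motif. Footprints of the libraries overlap in each region, and both CTCF matches lie wholly inside one in both libraries.

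Neither gene of the mitochondrial kinases had a strong promoter peak. Ckmt1, the form found in most tissues other than muscle, had no promoter peak and 5 peaks in each library, 4 of them shared. The nearest was not its own: at chr2:121355301-121355520, centred 2304 bp upstream of Ckmt1 and 14 bp from the start of Ppip5k1, an inositol pyrophosphate kinase gene, the densities were 8.22 and 5.15 and the ranks 96.9 and 97.5. A MCAT element, CATTCC, and a MEF3 motif, TCAGGTT, lay inside footprints of both libraries there. The only 2 shared distal peaks lay 48433 bp upstream and 45454 bp downstream, at mean ranks of 55.1 and 16.9, and 0 were left with the shorter lists.

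Ckmt2, the mitochondrial form of striated muscle, had a promoter peak in both libraries, but a weak one. It lay at chr13:91876848-91876914 with a density of 0.419 in replicate 1 and at chr13:91876861-91877049 with 0.330 in replicate 2, at ranks of 16.7 and 26.1. It was lost in the shorter peak lists and among the strongest 50% of peaks, which left 5 of 9 genes with a promoter peak. Each library had 1 footprint in it, and these did not overlap. The 164 bases of the peak upstream of the start, chr13:91876886-91877049 on the minus strand, are shown because a CAGCTG E-box from -107 and a CACCTG E-box from -153 lie there with no footprint on either. Both E-boxes lie in the peak of replicate 2 only, beyond the end of the shorter peak of replicate 1.
Ckmt2 promoter: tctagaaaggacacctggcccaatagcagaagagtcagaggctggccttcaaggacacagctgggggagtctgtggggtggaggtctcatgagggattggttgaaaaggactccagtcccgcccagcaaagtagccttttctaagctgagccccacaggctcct
Of its 6 peaks in replicate 1 and 17 in replicate 2, 5 were shared and 4 of these distal. The strongest lay 31525 bp upstream in an intron of Rasgrf2, a gene of a Ras exchange factor, at chr13:91908321-91908500, with densities of 2.31 and 1.81 and a mean rank of 84.2, well above the promoter. The others were 1 in the 3′ UTR of Rasgrf2 at a mean rank of 51.8, 1 in an intron of Ckmt2 at 45.8 and 1 in Rasgrf2 at 15.7.

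Ak1, the cytosolic adenylate kinase of muscle, had the most shared peaks of the 9 genes. It had 26 peaks in replicate 1 and 32 in replicate 2, 23 of them shared and 13 shared and distal. Its 5 coding starts spread over several kb, and promoter peaks numbered 5 in replicate 1 and 3 in replicate 2. The strongest differed between the libraries: in replicate 1 it was chr2:32628861-32629020 with a density of 2.71 and in replicate 2 chr2:32625321-32625540 with 1.45. The first of these had a density of 1.19 in replicate 2 and the second 1.92 in replicate 1, so both were open in both. The peak at chr2:32628861-32629020, 471 to 630 bp downstream of a coding start in an intron, is printed for its shared footprint.
Ak1 internal: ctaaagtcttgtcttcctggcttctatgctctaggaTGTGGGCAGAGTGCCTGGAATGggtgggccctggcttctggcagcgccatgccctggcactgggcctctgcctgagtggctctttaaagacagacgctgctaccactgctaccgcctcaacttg
Its block of 22 capitals ends with the letters of a MCAT element on the opposite strand, at 523 bp from the start, held by the footprint in both libraries. At the other start, a TATA box that lies 21 bp downstream, inside a MEF2 match, was not footprinted in either library.

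The strongest distal peak of Ak1 lay 18778 bp upstream in an intron of St6galnac6, a sialyltransferase gene, at chr2:32602901-32603060, with densities of 4.58 and 2.93 and a mean rank of 92.2. Next came chr2:32631801-32632000 in an intron of Ak1 itself, with 2.07 and 1.92 and a mean rank of 83.5. After it, the one 38164 bp upstream in the 3′ UTR of Pip5kl1, had 1.66 and 1.63 and a mean rank of 79.6. The other 10 shared distal peaks reached down to a mean rank of 52.6.

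Ampd1, the AMP deaminase of skeletal muscle, was among the least accessible of the set. It had 8 peaks in replicate 1 and 10 in replicate 2, no promoter peak, and 2 shared distal peaks of 7 shared. Of these 2, 0 were left with the shorter lists, with the strongest 50% of peaks, or with a reciprocal overlap of 50%. The one inside the gene, 5475 bp downstream of the start in an intron at chr3:103079426-103079631, had densities of 0.628 and 0.357 and a mean rank of 32.1. The other lay 44802 bp away in an intron of Dennd2c at a mean rank of 36.1. The strong peaks of the window were starts of neighbours: Nras, the small GTPase, at ranks of 98.3 and 98.4, and Dennd2c, at 96.6 and 96.5.

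Mb encodes myoglobin. No peak touched a promoter of its 6 coding starts. The sequence before the more upstream of the RefSeq starts inside the gene, chr15:77022788-77023037 on the minus strand, is printed as an example of these promoters without a peak.
Mb downstream start: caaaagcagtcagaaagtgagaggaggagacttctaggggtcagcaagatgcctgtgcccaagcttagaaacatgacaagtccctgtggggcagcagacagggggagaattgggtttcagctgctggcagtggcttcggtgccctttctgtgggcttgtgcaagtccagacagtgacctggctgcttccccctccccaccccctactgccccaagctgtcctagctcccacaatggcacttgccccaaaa
It holds a CAGCTG E-box from -133 and a CACCC match from -54, and neither touched a footprint. Most footprints lay in peaks, 188735 of 210189 in replicate 1 and 292139 of 335055 in replicate 2. As no peak was called here, the lack of a footprint does not show that these sites were unbound.

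Accessible sites of Mb lay instead in its introns and in the flanks. It had 14 peaks in each library, 13 of them shared, and 11 of the shared ones were distal. The strongest lay 10725 bp upstream of an internal start, in an intron of the longer transcripts, at chr15:77036761-77036940, with densities of 4.83 and 2.85 and ranks of 91.9 and 92.7. Its sequence is shown because 51 of 180 bases were footprinted in both libraries.
Mb intron: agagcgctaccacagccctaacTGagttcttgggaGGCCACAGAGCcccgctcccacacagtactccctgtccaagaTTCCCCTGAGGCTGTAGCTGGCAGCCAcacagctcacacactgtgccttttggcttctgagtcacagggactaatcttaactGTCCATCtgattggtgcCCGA
The longest block spans 28 bp in replicate 1 and 31 bp in replicate 2 and holds none of the motifs searched. An AP-1 match, TGANTCA, lies outside the shared blocks. The next peaks were chr15:76973841-76974000, 48043 bp downstream between genes, with densities of 2.66 and 2.56 and a mean rank of 87.7, and chr15:77037901-77038080 in the same intron, with 2.67 and 1.86 and a mean rank of 85.8. The other 8 shared distal peaks had mean ranks down to 45.8.

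Slc6a8, the creatine transporter, lies on the X chromosome, of which male cells carry a single copy, so its densities and those of the autosomal genes do not rest on the same number of gene copies. Its promoter peak lay at chrX:73673021-73673220 in replicate 1, with a density of 2.25, and at chrX:73673041-73673240 in replicate 2, with 1.23, at ranks of 80.6 and 80.3. It held 1 footprint in replicate 1 and 5 in replicate 2. Of 10 peaks in replicate 1 all were shared, while replicate 2 had 21, and 5 shared peaks were distal. The strongest lay 18780 bp upstream between genes, at chrX:73654281-73654460, with 1.57 and 0.846 and a mean rank of 71.3. The next lay 12487 bp downstream in an intron of Bcap31 at a mean rank of 55.8.

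Gatm, the enzyme of the first step of creatine synthesis, had an open promoter in this muscle. The peak lay at chr2:122611181-122611380 in replicate 1, with a density of 2.00, and at chr2:122611101-122611380 in replicate 2, with 1.33, at ranks of 78.2 and 81.9. It held 3 footprints in replicate 1 and 5 in replicate 2. Gatm had 10 peaks in replicate 1 and 9 in replicate 2, 7 of them shared. The 3 shared distal peaks lay 17897 bp upstream at a mean rank of 81.4 and 28924 and 40023 bp downstream at 70.0 and 47.0, all between genes.

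Footprints were about as dense as elsewhere. The peaks of the 9 genes held 265 footprints in replicate 1 and 415 in replicate 2, which is 12.8 and 11.9 per kb of peak, beside 11.0 and 12.3 over all peaks. In the 99 shared peaks 14 motifs of muscle and general promoters had 229 matches on either strand, of which 7 were the second count of letters in overlapping peaks. Of these, 58 touched a footprint of both libraries, a share of 25.3%, beside 23.8% of 153786 matches in all shared peaks. Both E-box types touched a footprint of both libraries at more than the background share. CAGCTG did so in 5 of 16 matches (31.3%, beside 17.4% of all), and CACCTG in 7 of 17 (41.2%, beside 26.7%). Held in full, CAGCTG had 1 of 16, beside 1523 of 19647 over all shared peaks, so its surplus did not hold there. CACCTG had 6 of 17 held in full, beside 1973 of 10398. With so few matches these shares are descriptions only. In the central 200 bp of the peaks, CAGCTG was rarer near the 9 genes than over all peaks, in 15.2% beside 23.6% in replicate 1 and 19.7% beside 22.8% in replicate 2. CACCTG was near the background, in 21 of 112 peaks (18.8% beside 16.5%) and 29 of 173 (16.8% beside 15.0%). MCAT was more frequent, in 17.9% beside 11.5% and 14.5% beside 11.9%. So was CACCC, in 58.9% beside 48.8% and 61.8% beside 46.2%. MEF2 was too, in 3 peaks (2.68% beside 1.09%) and 7 peaks (4.05% beside 1.21%). Higher in both libraries as well were CArG, in 3 peaks each (2.68% beside 0.766%, 1.73% beside 0.803%), and MEF3 (3.57% beside 2.37%, 5.20% beside 2.45%). The hypoxia response core was higher in replicate 1 (20.5% beside 13.3%) and near the background in replicate 2 (13.9% beside 12.7%). ERR lay in 1 peak (0.893% beside 0.589%) and 2 peaks (1.16% beside 0.663%), too few to compare. NFAT was lower in both (5.36% beside 13.7%, 8.09% beside 15.1%), as were the TATA box and NRF1. SP1 and AP-1 differed in direction between the libraries.

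MEF2, the partner of the myogenic factors at many muscle genes, had 3 matches in the shared peaks and 0 in a footprint of both libraries, where 10.9% of all MEF2 matches were. The CArG box of serum response factor had 0 of 3, beside 22.2% of all. MCAT elements, CATTCC, which TEAD factors bind, had 4 of 18 beside 15.2% of all, and MEF3, TCAGGTT, had 1 of 4 beside 11.1%. GGGCGG, the SP1 motif, had 15 of 36 (41.7%) beside 42.1%, and CACCC 19 of 84 (22.6%) beside 18.5%, both near the background. The AP-1 motif, TGANTCA, had 0 of 8 beside 9.96%, and the NFAT motif, GGAAAA, 1 of 4 beside 11.9%. The hypoxia response core, ACGTG, had 6 of 34 beside 19.6%, and the TATA box 0 of 2 beside 11.2%. ERR, TNAAGGTCA, and NRF1 had no match. A match says only that the letters are there, and letters of CACCC can overlap those of SP1 or of the CTCF motif.

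The CTCF motif, added to the search after the footprinted sequences had been seen, was footprinted at every match. It occurred 8 times in the shared peaks of the 9 genes, and all 8 matches touched a footprint of both libraries, 6 of them wholly inside one in each. Over all shared peaks 94.9% of 4613 matches did, so this was the rule in these libraries. The printed matches upstream of Ckm and behind Ckb are among the 8. The 8 lay near Ckm (3), Mb (2), Ckb, Slc6a8 and Gatm (1 each), and 2 of them overlapped the CACCTG E-box. Of the 6 CACCTG matches held in full by footprints of both libraries, those 2, behind Ckb and 28924 bp downstream of Gatm, are therefore also CTCF matches. The motif lay in 7.14% of the peaks of replicate 1 and 5.20% of those of replicate 2, beside 5.10% and 4.48% of all, and in 0.557% of RefSeq promoters.

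**Figure D5:**
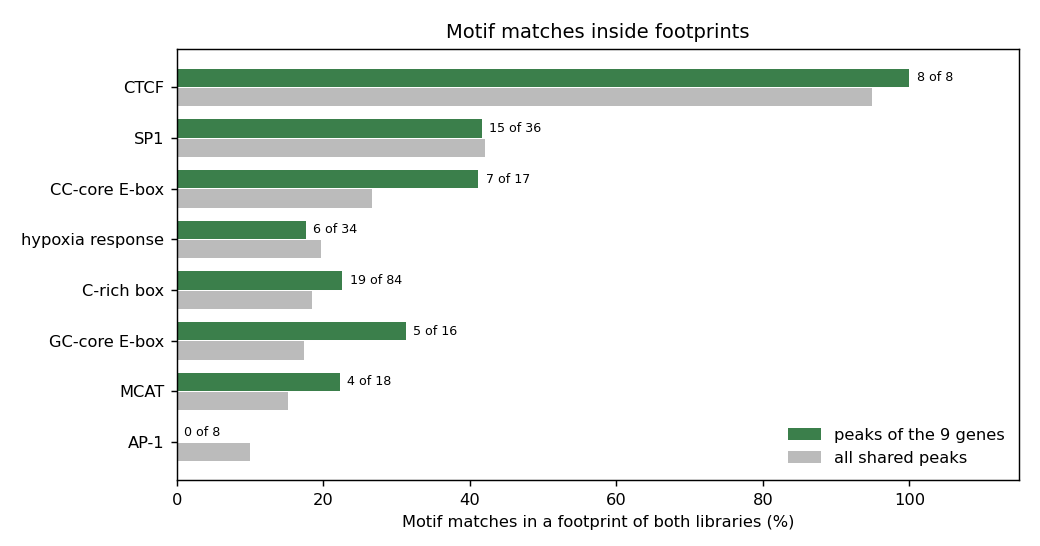
Bars give the percentage of motif matches that touch a footprint of both libraries, in the shared peaks of the 9 genes (green, with counts) and in all shared peaks (grey), for the motifs with at least 8 matches near the 9 genes. The CTCF motif, added after the footprinted sequences had been seen, stands apart in both sets. The E-box types are higher near the 9 genes on few matches. For the GC-core type (CAGCTG) this did not hold when the whole motif had to lie in a footprint.

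Much of the surplus of replicate 2 came in runs of weak peaks. Next to Ckm, 15 peaks of replicate 2 without a partner, some of them overlapping, lay within 7540 bp, chr7:19383761-19391300, in the body of Ercc2. Their median rank was 11.0. There 4388 bases had an FDR below 0.05 in replicate 2 and 0 in replicate 1. Within Ckmt2 itself 11 such peaks spanned 5573 bp, chr13:91859803-91865375, with a median rank of 2.40, where replicate 2 had 3685 bases and replicate 1 had 0. Upstream of Ckb 7 such peaks spanned 4700 bp, with a median rank of 9.92 and a highest of 73.8. Not all unshared peaks of replicate 2 near Ckb were weak: the one at chr12:111696401-111696600 had a rank of 85.7. The part of depth in these runs was not tested. Replicate 1 alone gave 18 peaks at Ckm and 6 at Ckmt2, where replicate 2 gave 36 and 17.

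Other genes of the pathway were mostly open. Of 35 genes in 3 lists, 30 (85.7%) had an open promoter in both libraries, beside 64.0% of all protein-coding genes, and 3 had none in either. All 6 genes of creatine synthesis and mitochondrial phosphate transfer had one, with median ranks of 98.2 and 98.7. The highest were Gamt, which completes creatine synthesis, at 99.4 ± 0.311, and Slc25a4, the ADP/ATP carrier of muscle, at 99.3 ± 0.196. All 21 genes of adenine nucleotide metabolism had one, with median ranks of 84.2 and 87.8, led by Adss, an adenylosuccinate synthase, at 99.4 ± 0.0776 and Ampd2, the non-muscle AMP deaminase, at 97.5 ± 1.05. Of 8 globins and oxygen response genes 3 had one in both, among them Hif1a at 97.7 ± 0.243 and Epas1 at 91.5 ± 1.92, the hypoxia-inducible factors. The red cell globins Hba-a1 and Hba-a2, near-identical copies and therefore uncertain, had none.

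Markers of the labelled tissue were open. All 8 skeletal muscle markers, led by Des at 88.5 ± 0.669 and Myod1 at 85.3 ± 1.11, had a promoter peak in both libraries. Of all protein-coding genes 64.0% did. The median ranks of these markers, 68.1 and 75.0, were below the 90.9 and 92.6 over all genes with a promoter peak. Of 6 heart markers 1 had one in both, Myl4, which embryonic skeletal muscle also uses. At 98.4 ± 1.15 it ranked above all 8 skeletal muscle markers. Nppa and Tbx20 had a peak in replicate 1 only, both at a rank of 42.0. Peaks in both libraries were found for 1 of 6 brain, 1 of 5 erythroid and 1 of 4 kidney tubule markers. Smooth muscle had 2 of 3 (66.7%), near the share of all genes, and liver and pancreas had 0 of 4 each. The part of smooth muscle or other cells in the peaks of Ckb, Slc6a8 or Gatm was not tested.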

How the data were processed

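DNase-seq of gastrocnemius gave 2 libraries of 1 group. All files are on mm10 and were called on each library by itself, per the deposited file listings (aligner and peak caller: not given in the sources used here). The deposited peak lists carry a cut density (signal), the authors' own value, in which 100% of values under 1 were whole multiples of 1 step (tolerance 0.1 step; 0.00675 in replicate 1, 0.00333 in replicate 2). Depth in reads is unknown, so no counting interval is given. The deposited false discovery rates (q-values) list bases below 0.05. The deposited footprints carry the constant 0.01 with no meaning stated. Each library had a longer peak list, used here, and a shorter one (54532 and 73623 peaks), used as an alternative.

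Starts came from GENCODE vM21 (GRCm38.p6). A peak was counted for each of the 9 genes with a start within 50 kb of it, even where another gene's start was nearer. Motifs were searched on both strands. RefSeq promoter entries matched 7 of 9 genes (13 entries). No group contrast existed, so counts and ranks are described beside all genes or peaks. All 9 genes are named, each with its promoter peak and up to 3 of its strongest shared distal peaks, and for each pathway list the 2 highest-ranked genes and up to 2 without a promoter peak; most marker lists are given by counts. Some peaks near Slc6a8 are not reported here. The genes, lists and motifs were chosen with earlier results of these data known. Calculations used Python 3.11.15, NumPy 2.4.6, pysam 0.24.0, samtools 1.23.1 and matplotlib 3.10.9, and the interval routines were tested on simulated data.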

Additional observations from a re-analysis of the deposited data

How the results depend on the processing

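Ckm, Ckb, Ak1, Slc6a8 and Gatm kept a promoter peak in both libraries under each alternative tried; Ckmt2 did so in all but 2, which left 5 of 9 genes. The share of all protein-coding genes, 64.0%, became 61.7% with promoters of 200 bp on either side, 65.4% with 1000 bp, 59.3% with the shorter peak lists, 57.7% with the strongest 50% of peaks, 59.9% with the most upstream start only, and 65.2% to 67.0% without 1 replicate. The mean of 142.5 peaks became 79.5 within 20 kb, 238.5 within 100 kb, 96 with the shorter lists and 91.5 with the strongest 50%. Without 1 replicate the number was 112 to 173. The 99 shared peaks became 50 within 20 kb, 181 within 100 kb and 64 with the shorter lists, and the 52 shared distal peaks 24 within 20 kb and 30 with the shorter lists. The 58 motif matches in footprints became 36 when held in full, 103 in either library and 79 to 82 without 1 replicate; leaving out a replicate here, and adding CTCF, were chosen after seeing the data. The cause of these shifts was not tested beyond the construction of each alternative. A count was said to move if it changed more than 1.5-fold. The share of all genes and the promoter ranks moved if they changed by at least the SD of the 2 libraries. Of 57 alternatives for counts and shares 16 moved, and of 127 for single genes 38 moved. Shared peaks need both libraries and have no value without 1. No paired analysis was possible because there is 1 group. With 2 libraries the spread rests on a single difference, and depth in reads is unknown.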
